A study of Homo sapiens with 6 samples.

Results

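The actin, myosin and spectrin cytoskeleton was described here through 45 protein-coding genes, among 60612 genes listed for 6 libraries of SH-SY5Y cells. The genes were picked by symbol, with earlier results of the same comparison in view, and each stood on 1 row of the table. Their differences between the groups are therefore a description and not independent evidence. The genes were ordered into 8 classes by role, which are filament actins, non-muscle myosin II, crosslinkers and spectrins, adhesion linkers, tropomyosins and other filament-side binders, cofilins with profilins and capping protein, the Arp2/3 complex, and membrane and cortex scaffolds.

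Actin filaments grow by adding actin monomers, which profilin delivers and cofilin recovers from old filaments, while capping protein closes the fast-growing end and the Arp2/3 complex starts branches. Bipolar filaments of non-muscle myosin II pull on actin filaments, alpha-actinin and filamin tie them together, and spectrin tetramers spread them into a lattice under the membrane, which in axons forms evenly spaced rings. In neuron-like cells this machinery shapes growth cones, neurites and adhesion, and many of its genes are known targets of serum response factor (SRF) with its actin-sensing partners, the MRTFs.

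SH-SY5Y is an established human neuroblastoma line of adrenergic, neuron-like character. In 3 libraries the cells carried a control vector, called a stuffer in the sample titles, and in the other 3 they carried a vector whose label states overexpression of the long noncoding RNA CDKN2B-AS1. All 6 were infected, and no untreated cells were among the samples. The column names of the table carry the tag LVx1 for the control vector and LVx2 for the labelled overexpression, which no label explains, and any handling difference it marks cannot be told apart from the group. Separate cultures are named by no label, so a p-value here measures the spread among these 6 libraries, which may be technical alone.

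Levels are FPKM, the fragments of a gene per kilobase of gene length, scaled to the library's total of assigned fragments. CDKN2B-AS1 itself (ENSG00000240498, chr9:21994139-22128103, plus strand, GRCh38) stood at 0.272, 0.288 and 0.191 FPKM with the control vector and at 0.338, 0.304 and 0.353 FPKM in the libraries labelled overexpression. Those groups did not overlap, with means of 0.250 ± 0.0522 and 0.332 ± 0.0252 FPKM (SD, n = 3). The exact two-sided permutation p was 0.1, the smallest that 3 libraries against 3 allow. Groups without overlap were also found for 24.1% of the genes tested below. CDKN2B-AS1 lay under 1 FPKM in every library, too low for that test. Fitted along with the tested genes, its log2 difference between the groups was 0.15 (SE 0.29, adjusted p = 0.834, limma-trend). Between 29048596 and 45102020 fragments were assigned per control vector library and between 20466583 and 48996425 per labelled overexpression library. On principal component 2, which held 26.3% of the variance, replicate 3 of the control vector lay at -40.6 and the other libraries between -4.86 and 17.8. Of 12 adrenergic neuroblastoma markers 11 were tested and 0 called, and their summed level was 1223 to 1370 FPKM against 1295 to 1409 FPKM. Single markers lay on both sides of 0 without overlap between the groups, GATA3 at a log2 fold change (labelled overexpression minus control vector) of 0.40, GATA2 at 0.27 and STMN2 at -0.25. Fibroblast markers summed to 53.6 to 67.9 FPKM against 57.9 to 67.6 FPKM, and epithelial and immune markers to at most 1.93 FPKM in any library.

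Promoter sequence was taken from RefSeq on GRCh38.p14, as windows from 250 bases before to 50 bases after a transcription start, which gave 67 windows for 41 of the 45 genes. ACTB, MYL9, PFN2 and TAGLN had no entry. A CArG box, the motif that SRF is known to bind, was searched on both strands as CCWWWWWWGG, where W is A or T. It stood in 5 of the 67 windows, in 5 of 41 genes (12.2%). Over all 35116 windows the share was 1.29%, and over all genes with a window 1.60%. Those windows were not matched to the members by expression or base content, and the shares were not tested. The 5 stretches are shown because they place the motif at genes from 3 of the classes described below, ACTG1 among those that passed the test. The windows of ACTA2, MYH10, SPTAN1 and SPTBN1, the other members that passed, held no match. Each is 60 bases long, 5′ to 3′ on the gene's strand, with the CArG box in capitals. The ACTG1 stretch lies at chr17:81512859-81512918 on the minus strand, with the box 94 bases before the start. That of ACTN1 lies at chr14:68977703-68977762, minus strand, 171 bases before it, and that of CNN2 at chr19:1026494-1026553, plus strand, 89 bases before it. For FLNA it lies at chrX:154374694-154374753, minus strand, 94 bases before the start, and for TPM4 at chr19:16067340-16067399, plus strand, 173 bases before it. ACTN1 and TPM4 have further starts whose windows held no match, and which start these cells use was not tested.
ACTG1: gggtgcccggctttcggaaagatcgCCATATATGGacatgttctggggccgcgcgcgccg
ACTN1: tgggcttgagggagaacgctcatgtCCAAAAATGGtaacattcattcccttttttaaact
CNN2: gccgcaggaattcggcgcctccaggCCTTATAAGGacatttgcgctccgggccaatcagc
FLNA: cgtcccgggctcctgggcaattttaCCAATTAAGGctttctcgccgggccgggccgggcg
TPM4: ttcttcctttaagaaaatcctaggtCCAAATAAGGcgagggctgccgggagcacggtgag
A match is a run of letters and not a shown binding site, and windows without a match say nothing of SRF. Near matches were not counted, such as CCCTATATGG and CCTTGTTTGG in an ACTA2 window (chr10:88952724-88953023, minus strand). The hexamer GGAATG, the core that TEAD factors are known to bind, stood on either strand in 11 of the 67 windows (16.4%) against 14.03% of all windows. GGGCGG, the GC box core of SP1-type factors, stood on either strand in 74.6% of the 67 windows against 44.95% of all windows.

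The cytoskeletal genes spanned a wide range of levels. In the control vector libraries 12 of the 45 had a mean above 100 FPKM, 22 a mean between 10 and 100 FPKM, 9 between 1 and 10 FPKM, and TPM2 and MYL9 below 1 FPKM. ACTB had the highest level in every library, and PFN1 and ACTG1 came next in the control means. The 45 genes together took 2.64% ± 0.117 (SD, n = 3) of all assigned fragments with the control vector and 3.28% ± 0.0218 in the labelled overexpression libraries. The lowest labelled overexpression library, at 3.26%, lay above the highest control library, at 2.76%. ACTB alone accounted for 1.16% ± 0.0702 and 1.51% ± 0.0651 of the fragments.

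**Figure D1:**
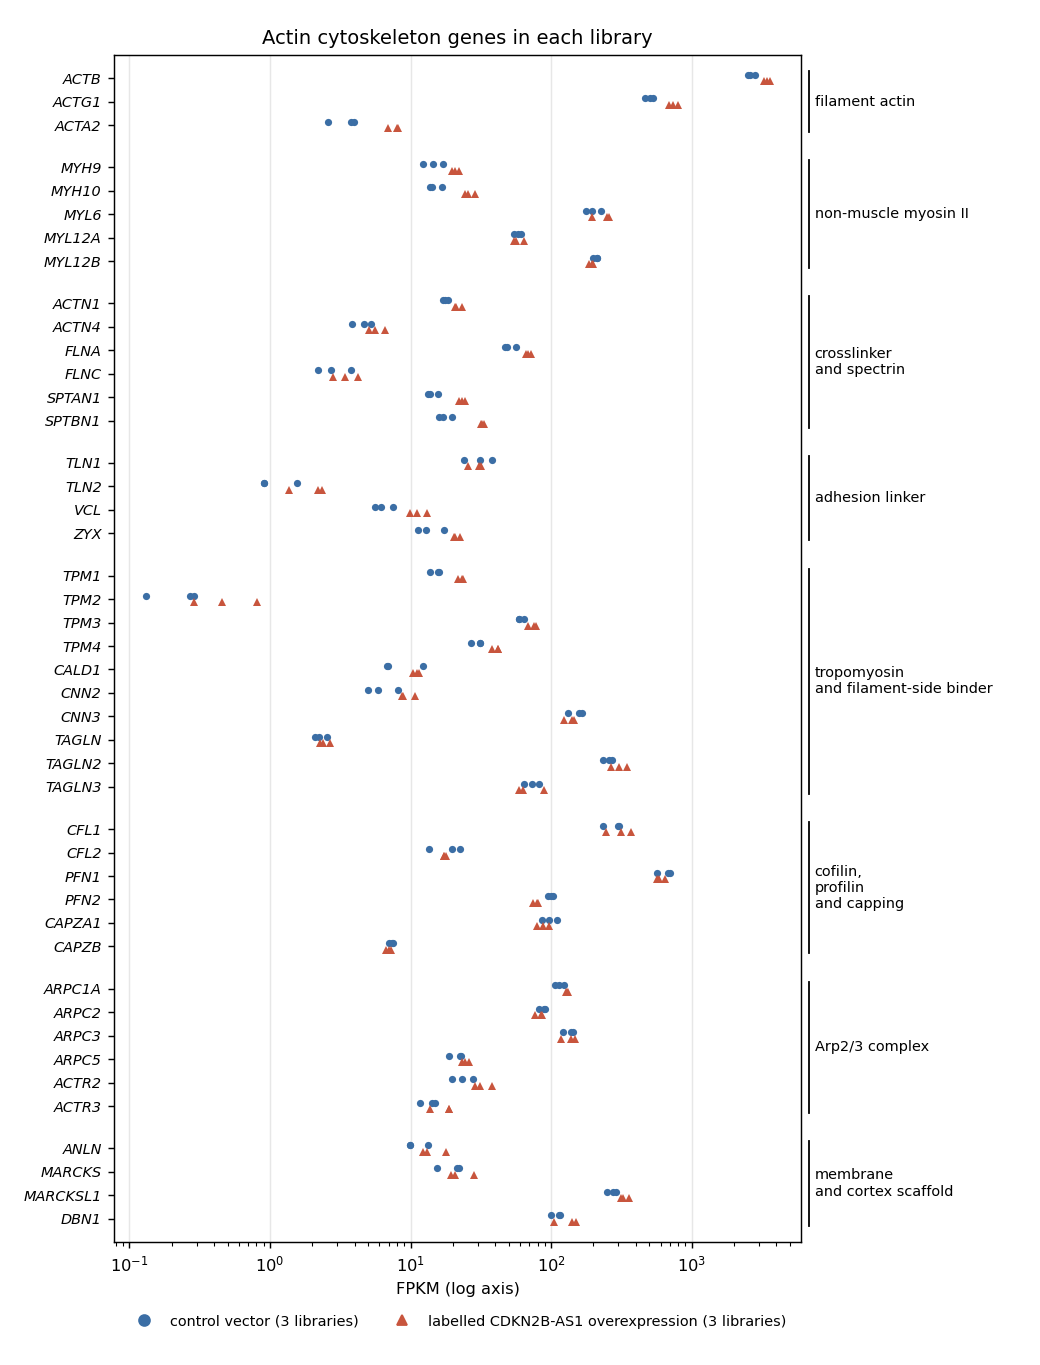
FPKM (log axis) of 44 cytoskeletal genes in each of the 6 libraries, arranged by class, with a point for every library coloured by group; MYL9 is left out because it is listed at 0 in 4 libraries. ACTB lies highest in every library, and the groups separate for all 3 filament actins and overlap for 5 of the 6 cofilin, profilin and capping genes.

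A gene was tested when it reached 1 FPKM in at least 3 of the 6 libraries, which left 13984 genes and 43 of the 45 members, all but TPM2 and MYL9. Fold changes are labelled overexpression minus control vector on the scale of log2(FPKM + 0.5), and a gene is said to pass at an adjusted p under 0.05 (limma-trend, Benjamini-Hochberg over all tested genes). ACTG1, ACTA2, MYH10, SPTAN1 and SPTBN1 rose, with adjusted p from 0.0244 to 0.0390, and 0 members fell. That is 5 of 43, where 1.14% of all tested genes passed, 0.529% upward and 0.608% downward, and since the members were chosen with this comparison known nothing is read from that share. At an unadjusted p under 0.05 stood 19 of the 43 members and 17.7% of all tested genes. By limma-voom on recovered fragments 7 members passed, all higher, against 0.565% of all tested genes higher and 0.908% in either direction. Of the 43, 32 had a log2 fold change above 0, against 56.8% of all tested genes, and their median was 0.28 against 0.05. In 19 members all labelled overexpression libraries lay above all control libraries and in 2 all lay below, where over all tested genes 24.1% did not overlap, 14.2% above and 9.9% below. RNA from a whole culture does not tell apart a change in the number of cells of a kind from a change in RNA per cell.

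The 5 calls rest on all 6 libraries: none of them passed without control vector replicate 1 or 2 or without any single labelled overexpression library, and only MYH10 and SPTBN1 passed without control vector replicate 3. None passed either with no filter on low values or without the mean-variance trend, and all 5 kept their sign in these and the other alternatives.

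**Figure D2:**
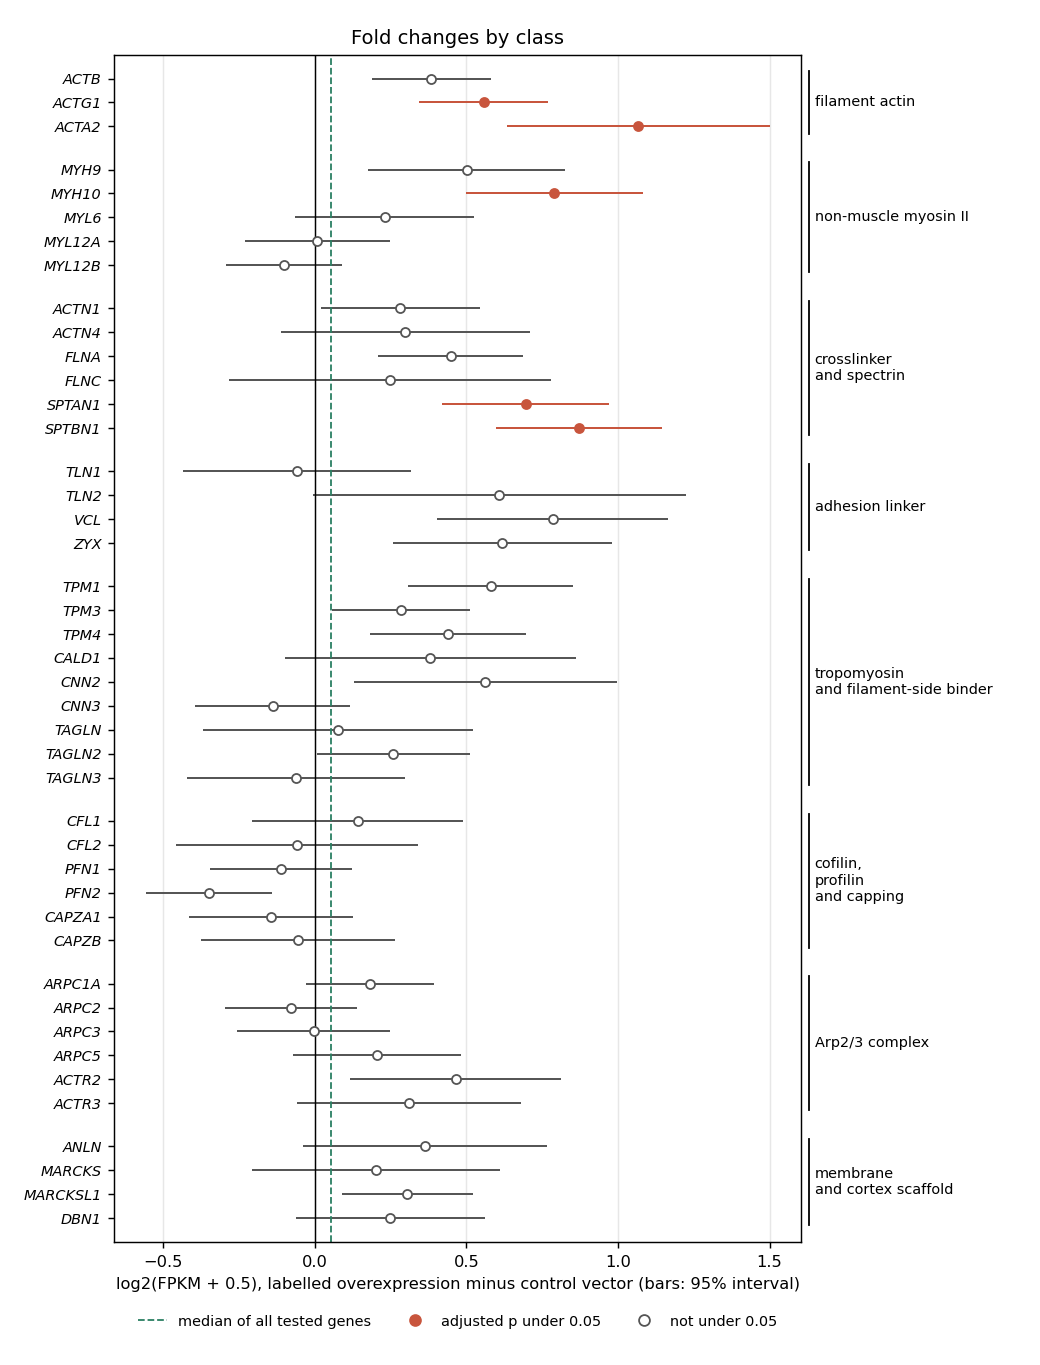
Log2 fold change (labelled overexpression minus control vector, on log2(FPKM + 0.5)) with its 95% confidence interval for the 43 tested genes by class; filled points have an adjusted p under 0.05 and the dashed line is the median of all tested genes, 0.05. Values run from -0.35 for PFN2 to 1.07 for ACTA2, and the 5 filled points all lie right of the dashed line.

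All 3 filament actins stood higher in every labelled overexpression library than in any control library, and 2 of them rose. ACTG1, cytoplasmic gamma-actin (ENSG00000184009, chr17:81509413-81523847, minus strand), was at 532, 507 and 465 FPKM with the control vector and at 731, 687 and 795 FPKM in the labelled overexpression libraries. It rose by 0.56 on the log2 scale (SE 0.09, adjusted p = 0.0367, limma-trend). ACTA2, the smooth muscle alpha-actin (ENSG00000107796, chr10:88935074-88991339, minus strand), was far lower, at 3.98, 3.77 and 2.59 FPKM against 7.99, 8.15 and 6.88 FPKM. Its rise of 1.07 (SE 0.19, adjusted p = 0.0390, limma-trend) was the largest among the tested members. ACTB, cytoplasmic beta-actin and a common reference gene (ENSG00000075624, chr7:5526409-5563902, minus strand), was at 2814, 2584 and 2508 FPKM against 3442, 3286 and 3582 FPKM. Its groups did not overlap, yet its log2 fold change of 0.38 (SE 0.09) did not pass, with an adjusted p of 0.0719 (limma-trend). It passed when libraries were scaled to a common total, with limma-voom, and after a trend with transcript length was removed.

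Summed over these genes, actin amounted to 3140 ± 191.7 FPKM (SD, n = 3) with the control vector and 4182 ± 200.6 FPKM in the labelled overexpression libraries. ACTB made up 83.9% ± 0.404 of this sum in the former and 82.2% ± 0.426 in the latter. The ratio of ACTB to ACTG1 was 5.10 to 5.40 with the control vector and 4.51 to 4.78 with the labelled overexpression, so the balance of the cytoplasmic isoforms lay nearer to ACTG1 in each of the latter.

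The actins have many processed copies, but little of the signal lay on them. The 11 listed ACTB pseudogenes held between 0.134% and 0.166% of the fragments of ACTB in each library, and the 21 listed ACTG1 pseudogenes between 0.371% and 0.667% of those of ACTG1. Of the 50-base windows along the principal transcript, 10.3% for ACTB, 3.58% for ACTG1 and 0% for ACTA2 were found in transcripts of other genes.

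ACTA2 shares exon sequence on the opposite strand with ACTA2-AS1, a long noncoding RNA at 1.54 FPKM against 3.26 FPKM on average, with a log2 fold change of 0.89 (adjusted p = 0.0792, limma-trend). The sources used here do not state a strand setting for the assignment of reads, so reads of this pair cannot be told apart. The markers of smooth muscle other than ACTA2 summed to 5.50 to 9.19 FPKM with the control vector and to 9.30 to 9.92 FPKM in the labelled overexpression libraries, nearly all of it from SMTN and SYNPO2, neither of which passed. The remaining markers of this list were near 0. MYH11 reached at most 0.242 FPKM, CNN1 0.309 FPKM, ACTG2 0.278 FPKM and LMOD1 0.279 FPKM. DES was listed at 0 in 5 libraries, and MYOCD, PLN and CASQ2, which make up 3 of the 10 markers, at 0 in all 6. The part of these other genes in the ACTA2 difference was not tested.

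**Figure D3:**
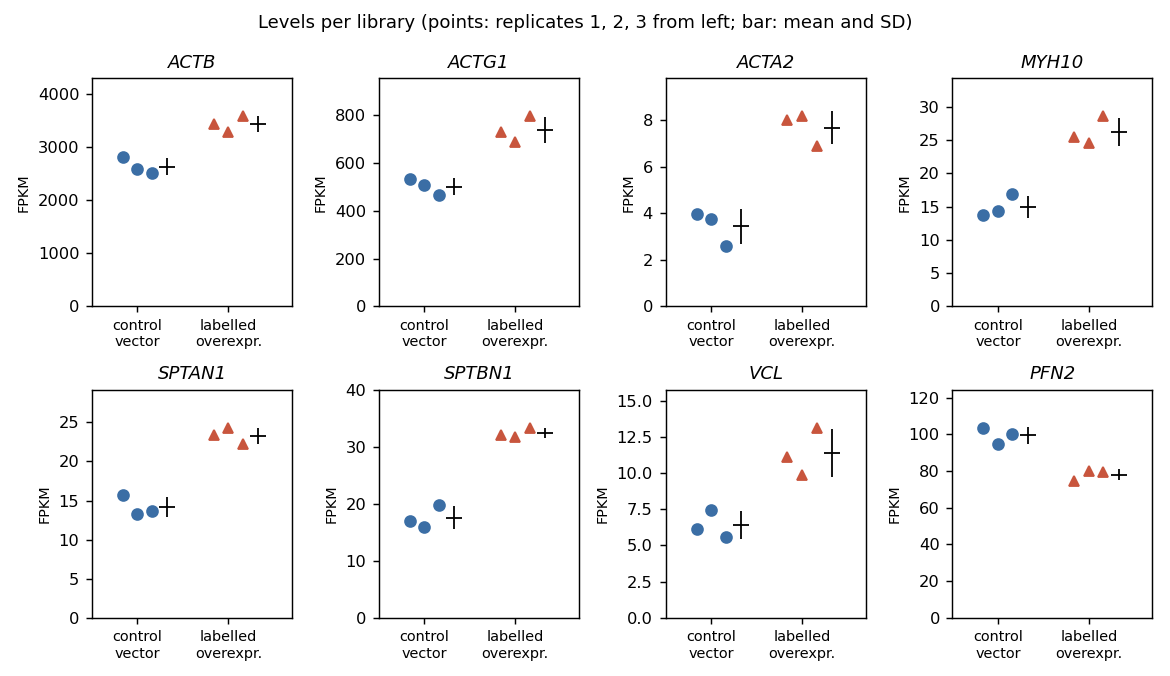
FPKM on linear axes from 0 for ACTB, ACTG1, ACTA2, MYH10, SPTAN1, SPTBN1, VCL and PFN2, with a point for each library and the mean and SD of each group of 3. The 8 genes are a selection in which the groups do not overlap. Among the 43 tested members the groups overlap in 22, and over all tested genes 24.1% do not overlap. PFN2 is the panel in which the labelled overexpression libraries lie below the controls, at 74.4 to 80.0 FPKM against 94.6 to 104 FPKM.

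Among the non-muscle myosin II genes the heavy chain MYH10 rose, and the other heavy chain and the tested light chains did not pass. MYH10 encodes the heavy chain of myosin IIB, the form prominent in neurons (ENSG00000133026, chr17:8474207-8630761, minus strand). Its levels were 13.8, 14.3 and 16.9 FPKM against 25.5, 24.6 and 28.6 FPKM, a rise of 0.79 (SE 0.13, adjusted p = 0.0336, limma-trend). MYH9, the heavy chain of myosin IIA, was at 17.1, 12.3 and 14.5 FPKM against 22.1, 19.6 and 20.7 FPKM, a log2 fold change of 0.50 (SE 0.15) that did not pass. These heavy chains have transcripts of nearly equal length, and the ratio of MYH10 to MYH9 was 1.04 ± 0.206 with the control vector and 1.26 ± 0.114 in the labelled overexpression libraries (SD, n = 3), and the ranges of 0.804 to 1.16 and 1.15 to 1.38 overlapped narrowly.

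The light chains bind the neck of the heavy chains. MYL6, the essential light chain, was at 195, 225 and 176 FPKM against 249, 256 and 195 FPKM, so the groups overlapped. Of the regulatory light chains, which are phosphorylated to switch the motor on, MYL12A averaged 58.1 ± 3.19 FPKM against 58.5 ± 5.15 FPKM (SD, n = 3). MYL12B lay at 212, 212 and 197 FPKM against 197, 187 and 196 FPKM, with a log2 fold change of -0.10 (SE 0.09) and a 95% interval from -0.29 to 0.09. It was one of 2 members with every labelled overexpression library below every control, by a narrow margin, and its sign turned under a common total per library (0.010). The neighbours MYL12A and MYL12B on chromosome 18 share 9.41% and 9.42% of their 50-base windows with other genes, mostly with each other. MYL9, the smooth muscle regulatory light chain, was listed at no more than 0.00395 FPKM in any library.

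Both spectrins rose, and all 6 spectrin and crosslinker genes had a log2 fold change above 0, with a class median of 0.37. SPTBN1, the main non-erythroid beta-spectrin (ENSG00000115306, chr2:54456317-54671446, plus strand), was at 17.0, 15.9 and 19.8 FPKM against 32.2, 31.8 and 33.4 FPKM, a rise of 0.87 (SE 0.12, adjusted p = 0.0244, limma-trend). Its partner SPTAN1, the non-erythroid alpha-spectrin (ENSG00000197694, chr9:128552558-128633662, plus strand), was at 15.7, 13.3 and 13.7 FPKM against 23.3, 24.3 and 22.2 FPKM, a rise of 0.69 (SE 0.12, adjusted p = 0.0380, limma-trend). In both, the gap between the groups was wider than the spread within either. The ratio of SPTBN1 to SPTAN1 averaged 1.24 ± 0.185 and 1.40 ± 0.0987 (SD, n = 3) and overlapped between the groups.

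Both spectrins have partners on the opposite strand. AC093110.3, a long noncoding RNA that overlaps exons of SPTBN1, was at 4.45 FPKM against 7.81 FPKM on average, and RP11-216B9.9, which overlaps SPTAN1, at 7.82 FPKM against 11.1 FPKM. Neither passed the test, and their part in the spectrin values was not tested. DYNC2I2, which also overlaps SPTAN1, was at 117 FPKM against 121 FPKM on average, above SPTAN1 itself, with a log2 fold change of 0.05. Exons of 22 of the 45 members overlap a gene that reaches 1 FPKM in any library. On the opposite strand such genes include NDEL1 at MYH10, at 3.65 FPKM against 4.65 FPKM, and AP3M1 at VCL, at 16.8 FPKM against 20.9 FPKM. RP11-244F12.2 at TPM1 was at 42.9 FPKM against 56.4 FPKM, and MYL12-AS1 at MYL12A and MYL12B at 68.9 FPKM against 68.6 FPKM. Their part in the members' values was not tested.

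FLNA, filamin A, which crosslinks filaments into networks, was at 55.9, 48.6 and 46.9 FPKM against 66.0, 68.7 and 72.0 FPKM, a log2 fold change of 0.45 (SE 0.11) that did not pass. Its muscle paralogue FLNC averaged 2.88 ± 0.803 FPKM against 3.48 ± 0.721 FPKM (SD, n = 3), with overlapping groups. The alpha-actinins, which bundle filaments, had near-equal log2 fold changes. ACTN1 was at 17.1 to 18.4 FPKM against 20.7 to 23.2 FPKM, without overlap (0.28, SE 0.12), and ACTN4 at 3.85 to 5.23 FPKM against 5.05 to 6.58 FPKM, with overlap (0.30, SE 0.18).

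None of the 4 adhesion linkers passed (0 called by limma-trend), although the class had the highest median, 0.61. VCL, vinculin, which strengthens the link between integrin adhesions and actin, was at 6.15, 7.44 and 5.56 FPKM against 11.1, 9.85 and 13.1 FPKM. Its log2 fold change of 0.78 (SE 0.17) matched that of MYH10 in size but had a wider error and an adjusted p of 0.0627 (limma-trend). ZYX, zyxin, which gathers on filaments under tension, was at 12.9, 17.2 and 11.3 FPKM against 22.5, 20.4 and 20.7 FPKM (0.62, SE 0.16). Both genes separated the groups, and limma-voom called VCL.

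The talins, which connect integrins to actin, overlapped between the groups. TLN1 was at 37.8, 31.0 and 24.1 FPKM against 30.8, 25.5 and 31.8 FPKM, with a log2 fold change of -0.06 (SE 0.17). TLN2 was low, at 1.57, 0.904 and 0.900 FPKM against 1.37, 2.21 and 2.35 FPKM (0.61, SE 0.28). The groups of TLN2 overlapped through control vector replicate 1 and labelled overexpression replicate 1.

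Tropomyosins, which run along the filament and set what may bind it, had log2 fold changes above 0 in the 3 tested genes, and none passed. TPM1 was at 13.8, 15.998 and 15.6 FPKM against 23.3, 23.6 and 21.7 FPKM, a log2 fold change of 0.58 (SE 0.12, adjusted p = 0.0564, limma-trend). TPM4 was at 31.4, 26.8 and 31.3 FPKM against 41.9, 37.7 and 42.0 FPKM (0.44, SE 0.11), and TPM3 at 58.9, 59.2 and 63.7 FPKM against 78.1, 75.9 and 68.0 FPKM (0.28, SE 0.10). The groups did not overlap in these 3 genes. TPM2, at 0.130 to 0.286 FPKM against 0.289 to 0.814 FPKM, rested on 18 to 53 fragments per library and was too low to be tested. The 4 genes summed to 105.8 ± 4.43 FPKM and 137.9 ± 5.95 FPKM (SD, n = 3).

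Of the other filament-side binders CNN2, a calponin, was at 8.10, 4.96 and 5.89 FPKM against 8.71, 8.86 and 10.7 FPKM (0.56, SE 0.19). The more abundant calponin CNN3 was at 164, 132 and 157 FPKM against 146, 123 and 142 FPKM, with the log2 fold change at -0.14 (SE 0.11) and overlapping groups. CALD1, caldesmon, stood at 6.87, 6.80 and 12.2 FPKM against 10.4, 11.4 and 11.1 FPKM. Its overlap came from control vector replicate 3, without which its log2 fold change went from 0.38 to 0.64. The transgelins overlapped in all 3 genes, from -0.06 for the neuronal TAGLN3 through 0.08 for TAGLN to 0.26 for TAGLN2.

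The members of the cofilin, profilin and capping class mostly had small log2 fold changes below 0. Among further genes of filament turnover, the monomer binders, severers and tropomodulins described below, 10 of 14 tested lay above 0, against 56.8% of all tested genes. Of the 6 cofilin, profilin and capping genes 1 had a log2 fold change above 0, the class median was -0.09, and 0 passed (limma-trend). PFN2, the profilin enriched in neurons (ENSG00000070087, chr3:149964904-150050788, minus strand), was at 104, 94.6 and 100.3 FPKM against 74.4, 80.0 and 79.5 FPKM. This was the lowest log2 fold change of all members, -0.35 (SE 0.09, 95% interval from -0.56 to -0.14, adjusted p = 0.109, limma-trend), and the only other member with all labelled overexpression libraries below the controls. PFN1, the widespread profilin, was at 700, 677 and 571 FPKM against 648, 583 and 567 FPKM (-0.11, SE 0.10).

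CFL1, the main cofilin, was at 297, 305 and 235 FPKM against 316, 368 and 245 FPKM (0.14, SE 0.16), with replicate 3 the lowest in each group. CFL2, its muscle-type paralogue, averaged 18.5 ± 4.59 FPKM against 17.4 ± 0.278 FPKM. CAPZA1 and CAPZB, the capping protein subunits, had log2 fold changes of -0.15 (SE 0.12) and -0.06 (SE 0.14). Under a common total per library, which moved the median of all tested genes from 0.05 to 0.15, PFN2 stayed at -0.24, PFN1 came to -0.00034 and CFL2 and CAPZB came to 0.05 each, so the signs of CFL2 and CAPZB depend on the scaling. The sign of CFL2 also turned when single libraries were left out, where its log2 fold change ran from -0.27 to 0.09.

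The Arp2/3 complex, which nucleates branches, was split, and 0 of its 6 genes passed (limma-trend). The actin-related subunit ACTR2 was at 23.1, 19.8 and 27.6 FPKM against 31.2, 28.6 and 38.0 FPKM (0.46, SE 0.16), without overlap. ACTR3, the other actin-related subunit, was at 11.6 to 15.0 FPKM against 13.7 to 18.8 FPKM (0.31, SE 0.17), with overlap. The structural subunits lay between -0.08 for ARPC2 and 0.21 for ARPC5. ARPC1A is uncertain, since 75.8% of its 50-base windows are also in the transcript of an annotated readthrough gene, AC004922.1, and ARPC3 shares 26.5% of its windows with other genes.

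The 4 membrane and cortex scaffolds had log2 fold changes between 0.20 and 0.36, and 0 passed (limma-trend). MARCKSL1, which tethers actin to membrane lipids, was at 248, 289 and 273 FPKM against 360, 326 and 317 FPKM, without overlap (0.31, SE 0.10). Its relative MARCKS overlapped, at 21.3, 15.5 and 22.3 FPKM against 20.8, 19.3 and 28.2 FPKM. DBN1, drebrin, a neuronal side binder of actin, was at 99.4 to 116 FPKM against 105 to 150.4 FPKM (0.25, SE 0.14). ANLN, anillin, the scaffold of the cytokinetic ring, was at 9.87, 9.97 and 13.2 FPKM against 12.2, 13.1 and 17.7 FPKM (0.36, SE 0.18).

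Long transcripts had higher log2 fold changes than short ones over the whole table, which touches the spectrins, filamins, myosins and talins. Over 13794 tested genes with a principal transcript in GENCODE v29, the Spearman correlation of log2 fold change with transcript length was 0.26, and over the 43 members 0.37, where all points share the same 6 libraries. All tested genes had a median of -0.06 for transcripts up to 500 bases and of 0.18 above 4000 bases. The members' medians were 0.16 for the 14 with 1000 to 2000 bases, 0.28 for the 11 with 2000 to 4000 bases and 0.37 for the 16 above 4000 bases. With the length trend removed from each library, an alternative chosen after seeing the data, ACTB, ACTG1, ACTA2, MYH10, SPTBN1 and TPM1 passed. SPTAN1 then did not, at a log2 fold change of 0.52, and MYH10 stood at 0.62, SPTBN1 at 0.69 and FLNA at 0.27.

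**Figure D4:**
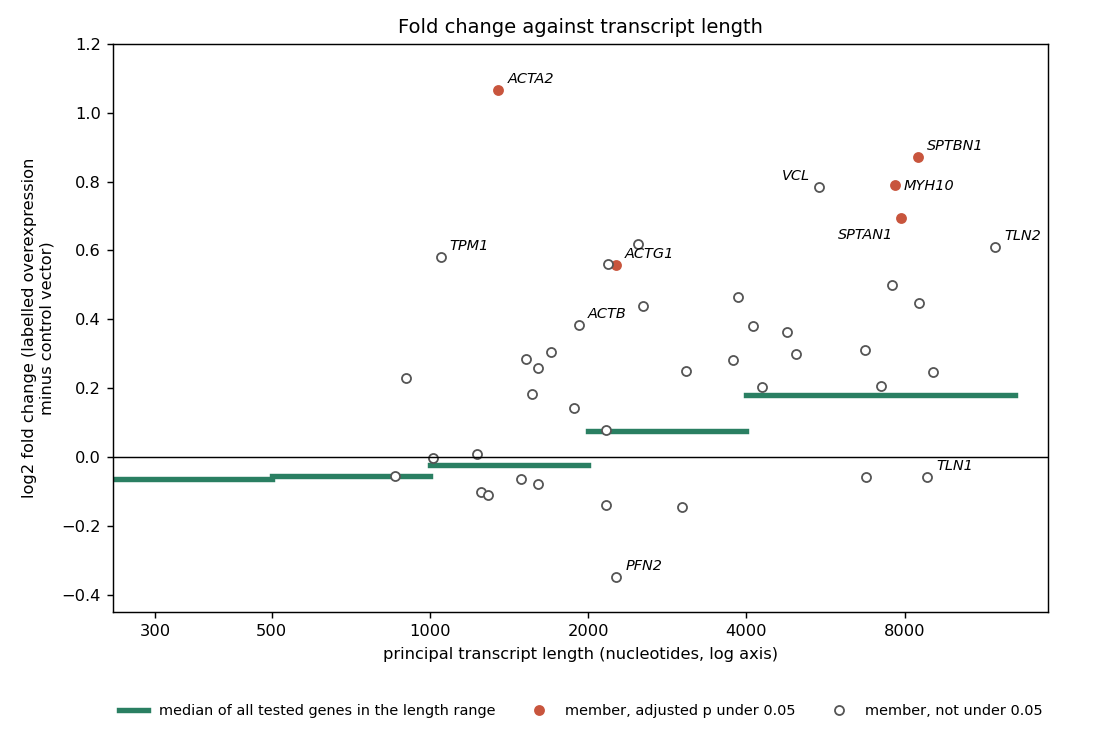
Log2 fold change (labelled overexpression minus control vector) against the length in bases of the principal transcript (log axis) for the 43 tested members (points, filled where the adjusted p is under 0.05), with the median of all tested genes in each length bin as a green line. The bin medians run from -0.06 to 0.18, and ACTA2, MYH10, SPTBN1, SPTAN1 and VCL lie above the median of their bin.

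Length also sets how levels compare between genes, because the table divides by the length of all annotated exons joined, which for some members is many times that of a single transcript. For CAPZB the joined exons span 19094 bases and the principal transcript 858 bases, a ratio of 22.3. Its control mean of 7.29 FPKM corresponds to 162 when divided by the principal transcript's length instead, against 113 for its partner CAPZA1, which the table lists at 97.7 FPKM. On that scale TPM3 stood at 603, TPM1 at 199 and TPM4 at 145 with the control vector, and ACTB kept the first place at 6043. Fold changes of a gene between libraries do not depend on this choice except through the pseudocount.

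Other genes of the actin system were counted from lists that were also chosen with earlier results of these data known. WASF1, a subunit of the WAVE complex that activates Arp2/3, was the one that passed in the lists given here, where 1.14% of all tested genes passed. It was at 24.9, 22.9 and 22.2 FPKM against 33.3, 35.9 and 35.3 FPKM, a rise of 0.57 (SE 0.11, adjusted p = 0.0448, limma-trend), and limma-voom did not call it. The other 16 of 17 tested nucleators and nucleation-promoting factors did not pass. Of the 17, 6 had an unadjusted p under 0.05, against 17.7% of all tested genes, and the median was 0.24. CTTN, cortactin, which stabilises branches, had a log2 fold change of 0.34 and CYFIP2 of 0.32.

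Among 14 monomer binders, severers and tropomodulins 0 passed in limma-trend and 0 in limma-voom, with 4 of the 14 at an unadjusted p under 0.05, against 17.7% of all tested genes, and their median was 0.15. WDR1, a cofactor of cofilin, had 0.47 (SE 0.12), CORO1C, a coronin, 0.37 (SE 0.10), and TMSB4X, which sequesters monomers, 0.28 (SE 0.10), each without overlap between the groups.

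Among 10 tested genes of SRF, the MRTFs and further known SRF targets 0 passed by either tool, with 4 of the 10 at an unadjusted p under 0.05, against 17.7% of all tested genes, and the median was 0.30. LMNA, lamin A/C, was at 52.3 to 68.7 FPKM against 82.4 to 98.3 FPKM (0.61, SE 0.12). FHL1 had 0.47 (SE 0.14), while JUNB, an immediate early gene, was lower in each labelled overexpression library, at 26.2 to 36.0 FPKM against 41.3 to 52.1 FPKM (-0.54, SE 0.14). The genes of this list therefore lay on both sides of 0, with 7 of 10 above it.

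Among 16 tested focal adhesion partners 0 passed by either tool and 0 had an unadjusted p under 0.05, against 17.7% of all tested genes, although 14 were above 0 and the median was 0.26. SRC and ITGB1, the beta-1 integrin, had 0.26 each without overlap between the groups, and LIMS1 had 0.44 with overlap. Among 8 spectrin and ankyrin partners 0 passed by either tool, with 1 of the 8 at an unadjusted p under 0.05, against the same 17.7%, and the median was 0.08. NF2, merlin, had 0.41 (SE 0.14), while the adducin ADD1 had 0.16 and DMTN, dematin, -0.32. Among 9 tested further isoforms of the member families 0 passed by either tool, with 3 of the 9 at an unadjusted p under 0.05, against 17.7% of all tested genes. ARPC1B, the alternative to ARPC1A, was at 9.76 to 15.0 FPKM against 15.3 to 20.4 FPKM. ARPC5L, the alternative to ARPC5, had 0.32 (SE 0.12) without overlap between the groups. CAPZA2, the alternative to CAPZA1, was at 26.0, 22.8 and 29.1 FPKM against 17.5, 16.9 and 24.0 FPKM.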

How the data were processed

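RNA from 6 SH-SY5Y samples was made into cDNA libraries with a SMART-seq kit and read as paired ends, per the labels' protocols. Alignment and assignment tools were STAR (2.7.9) and featureCounts (2.0.1), with hg38 and GRCh38.p13 as builds, per the submitters' processing notes; their options and strand setting are not given in the sources used here. The authors deposited an FPKM value for each gene in each library, beside the gene's length, per the file headers. Depth was recovered from the deposited FPKM as fragments in steps of 0.01, and 44.2% to 49.0% of the values were whole within 0.001 fragments (for values up to 1000 fragments), so fragments hold fractions and a count model was not the main test. Over the tested members, fragments per library ran from 325.83 to 773006. The table used here holds 0 mitochondrial genes.

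Genes at 1 FPKM or more in at least 3 of 6 libraries were fitted on log2(FPKM + 0.5) by limma-trend (limma 3.58.1, R 4.3.3), without block or covariate, and p was adjusted by Benjamini-Hochberg over the 13984 tested genes. A fold change on this scale understates the change of low genes. The script was tested on simulated data. The members, classes and gene lists were chosen with earlier results of these data known. Named were all members, CDKN2B-AS1, list genes past the threshold or otherwise up to 3 of smallest p (1 list is not reported here), and exon-overlapping genes that reach 1 FPKM, in part.

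All 45 members were found in GENCODE v29, as were 58300 of the 60612 gene IDs, 99.9% of them overlapping the annotated position; lengths and shared 50-base windows come from its principal transcripts. Intervals are 95% confidence intervals of the fit. Alternatives changed the pseudocount, filter, scaling, trend, weights, block, test and libraries.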

Additional observations from a re-analysis of the deposited data

How the results depend on the processing

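Of the 43 tested members, 35 kept the sign of their log2 fold change under each of the 17 alternatives (16 for FLNC, TLN2 and TAGLN, which the stricter filter leaves out), the 5 called ones among them, and MYL12A, MYL12B, TLN1, TAGLN3, CFL2, CAPZB, ARPC2 and ARPC3 did not. The members' median stayed between 0.23 and 0.39. No gene in the table passed without a filter on low values (0 members, 3538 genes and 19 members at an unadjusted p under 0.05) or without the mean-variance trend (0 members, 2304 genes and 16 members at an unadjusted p under 0.05), and the cause was not tested. At a filter of 5 FPKM 339 genes and 8 members passed, with FLNA, VCL and TPM1 added. Scaling to a common total per library gave 10 members, with ACTB, FLNA, VCL, TPM1 and MARCKSL1 added, and turned the split over the table from 74 higher and 85 lower to 181 higher and 52 lower. With median-of-ratios factors the split was 59 higher and 119 lower, and 5 members passed. Array weights gave 265 genes, 149 higher and 116 lower, and 6 members. With limma-voom on recovered fragments, 127 genes and 7 members passed and ACTA2 did not (log2 fold change 1.16).

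Leaving out 1 library at a time gave 0 to 139 genes and 0 to 2 members, with medians of 0.23 to 0.34. With control vector replicate 1 or labelled overexpression replicate 3 left out 3 genes passed, with control vector replicate 2 or labelled overexpression replicate 1 or 2 left out 0 did (1612 to 2274 at an unadjusted p under 0.05), and with control vector replicate 3 left out 139 did. Between 15 and 18 members had an unadjusted p under 0.05 in the 5 settings with 0 members called. Same-numbered libraries of the groups correlated at -0.02, 0.11 and 0.12 in their deviations from the group means. Pairs with different numbers lay between -0.18 and 0.10. Because the deviations of 3 libraries sum to 0, these values cannot decide whether the numbers mark a shared batch. The fit with a replicate block called 229 genes, 98 higher and 131 lower, the same 5 members and a median of 0.28. The removal of the length trend, chosen after seeing the data, gave 127 genes, 6 members and a median of 0.24. Members with few fragments, such as MYL9 and TPM2, were too low to test.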
